A study of Mus musculus with 6 samples.

Results

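The genes described here encode the proteins of the cytosolic ribosome. They were taken as every row of the deposited count table whose symbol is Rps or Rpl followed by a number, with an optional a, l or x, plus Rpsa, Rplp0, Rplp1 and Rplp2. Symbols with -ps, which mark pseudogenes, were not taken. The rule still kept Rps4l, which the GENCODE annotation lists as a transcribed processed pseudogene. The rule found 79 members among 14992 genes, and all 79 had enough counts to be tested. They comprised 30 small-subunit genes, 42 large-subunit genes, 3 stalk genes and 4 divergent paralogs.

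RNA was measured in bone marrow of irradiated C57BL/6 mice that had received whole marrow from Dnmt3a knockout donors, so the transplanted cells of both groups lacked this DNA methyltransferase. Recipients were given vehicle (3 libraries) or a PI3Kalpha/beta inhibitor at 75 mg/kg (3 libraries) for 21 days before harvest. The labels' protocol speaks of leukaemic cells in these mice. The vehicle libraries are numbered 1, 2 and 3 and the inhibitor libraries 1, 3 and 5, and nothing in the labels says outright that each is a separate mouse. A p-value here therefore sets the difference between the groups only against the spread of these libraries, and that spread may be technical.

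A ribosome is built from ribosomal RNA and one copy of most of these proteins in a small subunit, which reads the messenger RNA, and a large subunit, which joins amino acids. The messenger RNAs of ribosomal proteins usually begin with a stretch of C and T called a 5′ terminal oligopyrimidine (TOP) sequence, through which mTOR, a kinase downstream of PI3K, controls how often they are translated. RNA levels do not measure how often a message is translated. In blood formation the family is known from Diamond-Blackfan anaemia, in which loss of 1 copy of a ribosomal protein gene impairs red cell production.

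The starts of the members were read for the TOP sequence, because it is the feature that links this family to the pathway the inhibitor targets. RefSeq promoter entries on GRCm38.p6 were matched by symbol for 58 of the 79 members, with 70 annotated starts. A run of at least 6 C or T bases on the coding strand that begins with C within 10 bases of the annotated start was present at 34 of these 70 starts (48.6%), against 19.2% of all 32851 starts in the table. A C at the annotated first base itself, followed by at least 5 more C or T bases and whether or not the run began upstream, was present at 15.7% of member starts and 1.7% of all starts. The following 30-base windows run 5′ to 3′, with the annotated first base at position 11 and the run in capitals. They show the S6 kinase substrate Rps6, 3 of the small-subunit genes with the smallest p-values, 2 large-subunit genes, a stalk gene, and Rps2 and Rps27, which had among the lowest fold changes.
Rps6: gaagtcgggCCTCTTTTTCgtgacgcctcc
Rps9: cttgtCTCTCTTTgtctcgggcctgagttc
Rps12: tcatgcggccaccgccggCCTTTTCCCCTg
Rps21: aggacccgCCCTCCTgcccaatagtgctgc
Rpl35a: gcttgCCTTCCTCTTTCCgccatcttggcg
Rpl31: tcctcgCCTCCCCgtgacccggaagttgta
Rplp2: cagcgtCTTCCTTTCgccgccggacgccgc
Rps2: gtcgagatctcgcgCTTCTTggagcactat
Rps27: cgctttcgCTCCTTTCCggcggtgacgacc

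In GRCm38.p6 these windows lie at chr4:86857348-86857377 on the minus strand (Rps6), chr7:3704031-3704060 on the plus strand (Rps9), chr10:23787190-23787219 on the minus strand (Rps12) and chr2:180257369-180257398 on the plus strand (Rps21). Those of the large subunit and stalk lie at chr16:33056472-33056501 (Rpl35a), chr1:39367841-39367870 (Rpl31) and chr7:141447641-141447670 (Rplp2), all on the plus strand. The windows of Rps2 and Rps27 lie at chr17:24720053-24720082 on the plus strand and chr3:90213629-90213658 on the minus strand. In these RefSeq windows the run spans the annotated first base of Rps6, Rps9, Rps21, Rpl35a, Rpl31, Rplp2 and Rps27, and begins 8 bases after it in Rps12 and 4 bases after it in Rps2. The members with such a run had a median log2 fold change, inhibitor over vehicle, of 0.46 (33 genes), and those without one 0.45 (25 genes). The rule reads annotated starts only, and the starts used in these cells were not examined. A member without such a run may therefore still have a TOP sequence, and the split does not compare messages with and without one. Over the whole 300-base promoters, searched on both strands, the letters CGGAAG were present at 61.4% of member starts and 16.9% of all starts, ATGGCGG at 18.6% and 4.05%, GGGCGG at 58.6% and 35.7%, and TATAAA at 8.57% and 13.6%. ATGGCGG and GGGCGG share the letters GGCGG, and a match here is a match of letters only.

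The 6 libraries held between 28198638 and 59384880 counts. Marker levels of several cell types also differed between the groups. Summed over 13 macrophage markers, the level was 2379 to 7930 CPM (counts scaled to a common library size) in the vehicle libraries and 910.4 to 1157 CPM in the inhibitor libraries, and 12 of the 13 were lower without overlap. Late neutrophil granule markers summed to 40707 to 66859 CPM against 101958 to 127186 CPM, with all 10 fitted higher, and the 10 B lymphoid markers to 50.3 to 121 CPM against 190 to 572 CPM. Vehicle 1 stood apart from the other vehicles, with the highest macrophage sum and the highest erythroid sum, 4194 CPM against 647 to 1456 CPM in the remaining 5 libraries. None of the listed marrow markers in the table was at 0 in every library, and Dnmt3a, whose deleted part the labels do not give, was at 20.3 ± 4.01 CPM with vehicle and 17.0 ± 2.76 CPM with the inhibitor (SD, n = 3 each). In bulk RNA, fewer cells of a type and less RNA per cell cannot be told apart, and the part of cell content in the values of the members was not tested.

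Ribosomal protein genes took 5.21% of all counts in vehicle 1, 4.30% in vehicle 2 and 3.71% in vehicle 3, beside 4.31% in inhibitor 1, 5.21% in inhibitor 3 and 6.57% in inhibitor 5. The group means were 4.41% ± 0.756 and 5.36% ± 1.14 (SD, n = 3 each), a difference of 0.953 percentage points. The groups overlapped: vehicle 1 lay above inhibitor 1 and level with inhibitor 3, while inhibitor 5 was the highest library and vehicle 3 the lowest. The difference was smaller than the SD of the inhibitor group. It was 0.350 points without inhibitor 5, 0.605 without vehicle 3 and 1.48 without inhibitor 1.

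**Figure D1:**
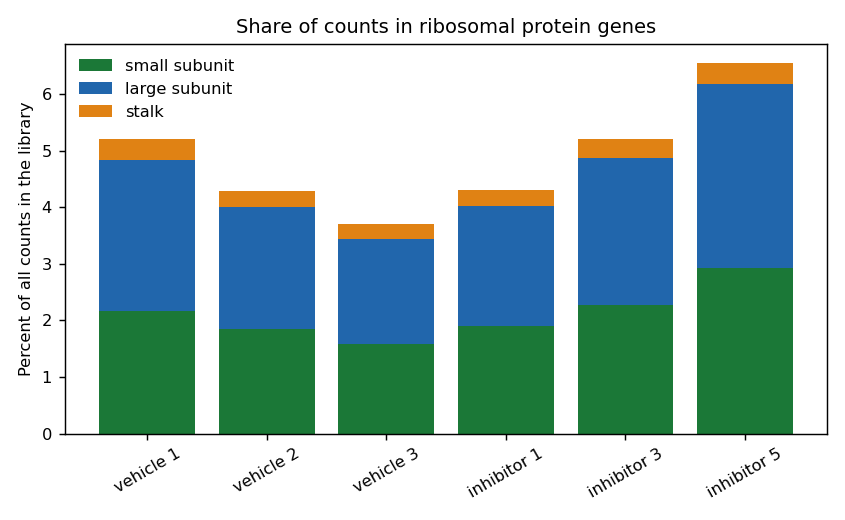
Percent of all counts (vertical axis) in small-subunit, large-subunit and stalk genes, stacked for each of the 6 libraries, with the divergent paralogs left out. For all members together the inhibitor libraries range from 4.31% to 6.57% and overlap the vehicle libraries, of which vehicle 1 is the highest at 5.21%.

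Much the same order of libraries ran through most members. Inhibitor 5 was the highest of the 6 libraries for 70 of the 79 members, and vehicle 3 the lowest for 77. Among the vehicles, vehicle 1 was highest for 75 members (46.6% of all tested genes), and among the inhibitors, inhibitor 1 was lowest for 77. Shares over all tested genes were not computed for inhibitor 5 highest, vehicle 3 lowest or inhibitor 1 lowest. Vehicle 2 lay below every inhibitor library for 75 members, against 29.5% of all tested genes, and vehicle 3 did so for 77, against 32.6%. Vehicle 1 was above inhibitor 1 for 56 members, against 51.6% of all tested genes. The median member was 1.92 times higher in its highest than in its lowest library.

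**Figure D2:**
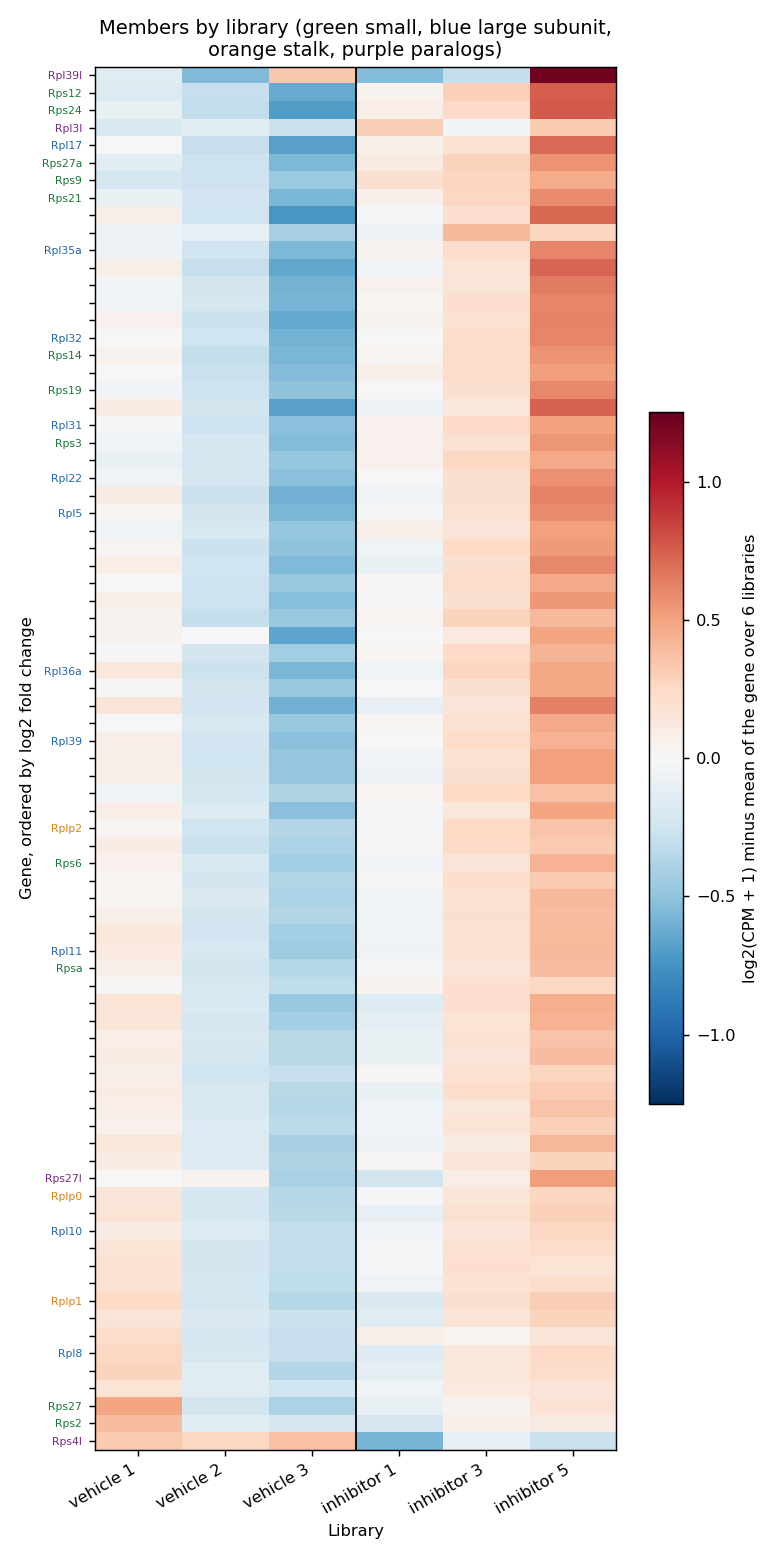
Deviation of each member from its own mean, as log2(CPM + 1), in the 6 libraries (columns), with genes (rows) ordered by fold change and coloured by role, and labels on some of the genes the text names. Inhibitor 5 is the highest library in 70 of the 79 rows and vehicle 3 the lowest in 77, while vehicle 1 lies above inhibitor 1 in 56. For the highest and lowest library, shares over all tested genes were not computed.

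Across the 12806 genes tested, edgeR's quasi-likelihood test called 234 at an adjusted p under 0.05, which is 1.83%: 81 higher with the inhibitor (0.633%) and 153 lower (1.19%). It called 0 of the 79 members, whose adjusted p ran from 0.0788 to 0.928. With unadjusted p under 0.05 stood 28 members that were higher and 1 that was lower. The same holds for 9.68% and 11.9% of the tested genes. The groups did not overlap for 23 members that were higher and 1 that was lower, against 14.4% and 16.2% of all tested genes. The fitted log2 fold change was positive for 77 of the 79 members, against 50% of all tested genes, with a median of 0.44 (quartiles 0.30 and 0.54) beside 0.00 for all tested genes. DESeq2 called 6 members higher and 1 lower (4.42% and 6.74% of all genes), and the authors' deposited table gives the same 6 higher and 1 lower (4.24% and 6.57% of all genes). limma voom called 0 (0.234% of all genes higher). At a looser adjusted p under 0.10, edgeR called Rps9 higher and Rps4l lower (3.3% and 4.95% of all genes).

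Single libraries set how many members passed. Without vehicle 1 the median log2 fold change of the members was 0.58, edgeR called 1 of them (Rps9, where 3.1% of all genes were called higher and 4.89% lower), and 67 were higher at an unadjusted p under 0.05 (13.4% of all genes). That last count was 49 without inhibitor 1 (7.54% of all genes) and 14 without inhibitor 3 (6.49%). It was 7 without vehicle 2 (8.78%), 5 without inhibitor 5 (8.02%) and 3 without vehicle 3 (7.46%). limma voom with sample quality weights, which gave vehicle 1 a weight of 0.161, called 66 members higher and 1 lower, beside 10.7% of all genes called higher and 11.6% lower. Between 75 and 78 members were positive with each library left out in turn, and 67 under an offset for gene length. The members moved together over the 6 libraries, with a median pairwise Pearson r of 0.955 on log2(CPM + 1). Such counts of members are therefore not counts of independent observations.

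**Figure D3:**
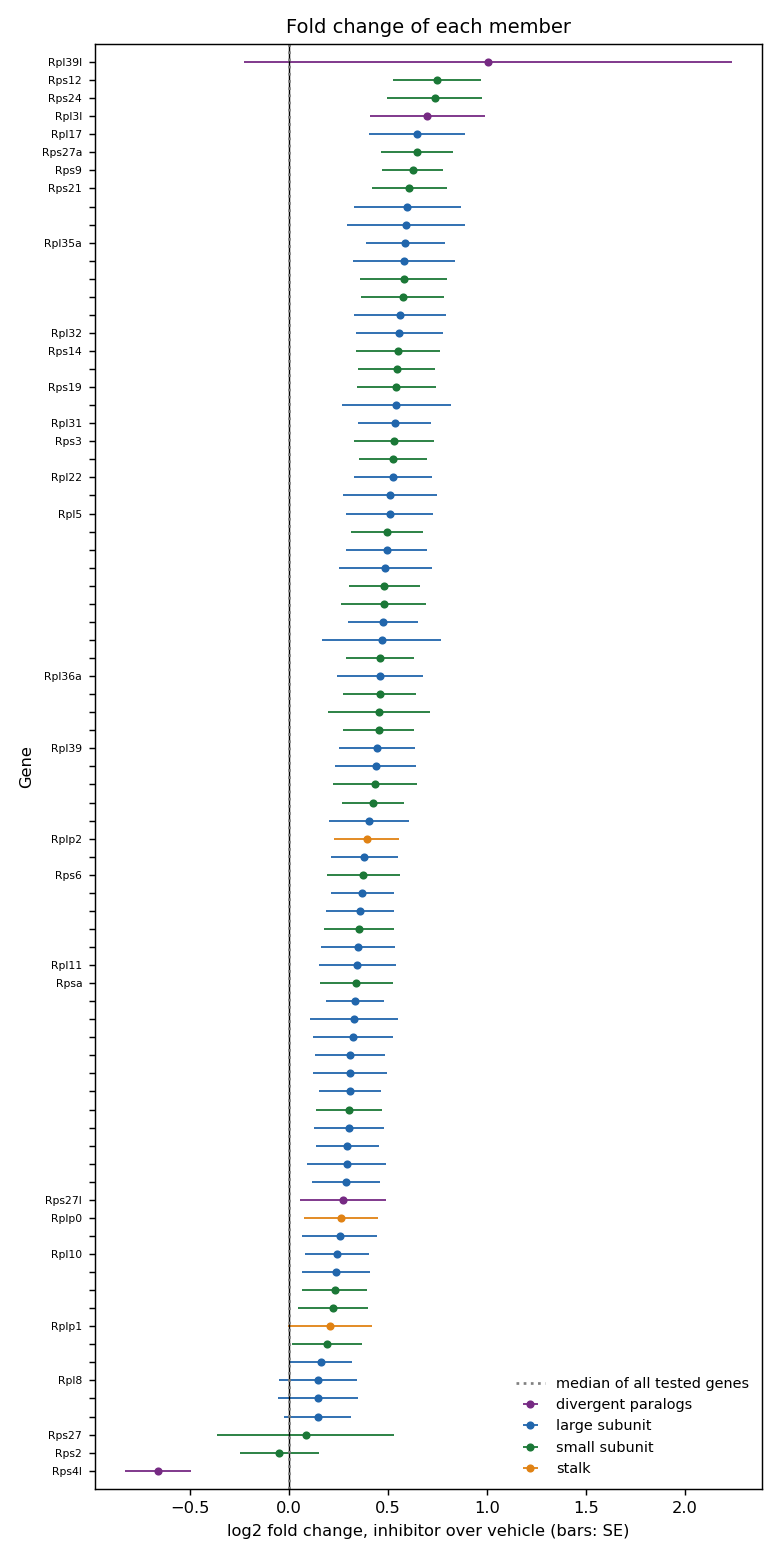
Fitted log2 fold change (horizontal axis, inhibitor over vehicle) of each of the 79 members with its standard error, ordered by size and coloured by role, with labels on some of the genes the text names. All but Rps2 and Rps4l lie above 0, the dotted line marks the median of all tested genes, and 0 members pass edgeR's adjusted threshold.

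Among the 30 small-subunit genes, 29 had a positive fold change with a median of 0.47, 18 were higher at an unadjusted p under 0.05 (9.68% of all genes), and 16 were higher without overlap (14.4% of all genes). Under an offset for gene length 25 of the 30 were positive. edgeR called 0 of them and DESeq2 called 6 (4.42% of all genes). Rps9, a small-subunit protein that helps keep decoding accurate (chr7:3703993-3706897), had levels of 1296, 1264 and 1093 CPM in the vehicles, in the order 1, 2, 3, and 1736, 1816 and 2085 CPM in the inhibitors, in the order 1, 3, 5, an order kept for all values that follow. Every inhibitor library of Rps9 lay above every vehicle library, including vehicle 1. Its log2 fold change was 0.63 ± 0.15 (SE) with an adjusted p of 0.0788 in edgeR and 0.000904 in DESeq2, the smallest of the members in both.

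Rps27a, made as a fusion of ubiquitin with a ribosomal protein (chr11:29545846-29548109), was at 729.5, 673 and 548 CPM in the vehicles and 873, 985 and 1196 CPM in the inhibitors. Rps12, a protein of the small-subunit head (chr10:23785183-23787275), was at 785, 722 and 569 CPM against 908, 1086 and 1492 CPM. Both were higher in each inhibitor library than in any vehicle, with inhibitor 5 the highest. Their log2 fold changes were 0.65 ± 0.18 and 0.75 ± 0.22, with adjusted p of 0.101 and 0.116 in edgeR and 0.0115 and 0.0205 in DESeq2.

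Rps24, a gene mutated in Diamond-Blackfan anaemia (chr14:24487125-24496959), was at 979, 841 and 643 CPM in the vehicles and 1101, 1227 and 1776 CPM in the inhibitors. Rps21, one of the smaller proteins of the subunit (chr2:180257377-180258445), was at 328, 296 and 236 CPM against 365, 419 and 526 CPM. In both the lowest inhibitor library, inhibitor 1, lay just above vehicle 1. Fold changes were 0.74 ± 0.24 and 0.61 ± 0.19 on the log2 scale, with edgeR adjusted p of 0.138 and 0.129.

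Rps6, the substrate of S6 kinase in the mTOR pathway (chr4:86854660-86857412), was at 548, 460.4 and 392 CPM in the vehicles and 514, 589 and 713 CPM in the inhibitors. Vehicle 1 lay between inhibitors 1 and 3, so the groups overlapped, and the log2 fold change was 0.38 ± 0.19 (edgeR adjusted p of 0.285). Rps19, the gene most often mutated in Diamond-Blackfan anaemia (chr7:24884371-24889806), was at 395, 339 and 284 CPM against 404, 466 and 613 CPM. It did not overlap between groups, though vehicle 1 and inhibitor 1 lay close together, and its log2 fold change was 0.54 ± 0.20 (edgeR adjusted p of 0.179).

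Rps14, whose loss contributes to the anaemia of the human 5q deletion syndrome (chr18:60747098-60778546), was at 773, 609.9 and 508 CPM in the vehicles and 773, 879.9 and 1114 CPM in the inhibitors. Vehicle 1 and inhibitor 1 were level for Rps14, with a log2 fold change of 0.55 ± 0.21 (edgeR adjusted p of 0.194). Rps3, a protein at the entry of the mRNA channel (chr7:99477896-99483738), had vehicle values of 1247, 1100.5 and 875 CPM and inhibitor values of 1328, 1463 and 1868 CPM, without overlap, and a log2 fold change of 0.53 ± 0.20 (edgeR adjusted p of 0.187).

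Rpsa, a protein near the mRNA exit site that is also known as the laminin receptor (chr9:120127689-120132369), was at 1803, 1462 and 1332 CPM against 1684, 1906 and 2230.3 CPM. Its groups overlapped, since vehicle 1 exceeded inhibitor 1, and the log2 fold change was 0.34 ± 0.19 (edgeR adjusted p of 0.323). Rps2, a protein at the entry of the mRNA channel (chr17:24718116-24721929), was 1 of the 2 members with a negative fold change. It was at 976, 682 and 642 CPM in the vehicles and 645, 778 and 802 CPM in the inhibitors. The highest Rps2 value was that of vehicle 1, and the log2 fold change of -0.05 ± 0.20 became 0.16 without that library.

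Sorted by place in the subunit, the 14 proteins of the small-subunit head had a median log2 fold change of 0.47, with all 14 positive, 10 at an unadjusted p under 0.05 (9.68% of all genes) and 10 higher without overlap (14.4% of all genes). The 7 proteins of the mRNA channel and decoding site, 1 of which (Rps2) was negative, had a median of 0.34, with 2 at an unadjusted p under 0.05. edgeR called 0 of either list. The lists share members (Rps3 and Rps28), and the difference between them was not tested. Under the length offset their medians were 0.17, with 12 of 14 positive, and 0.16, with 4 of 7 positive.

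All 42 large-subunit genes had a positive fold change, with a median of 0.37, although 38 of the 42 were positive under an offset for gene length (Rpl8, for example, at -0.045). Of the 42, 8 were higher at an unadjusted p under 0.05 (9.68% of all genes), 6 were higher without overlap (14.4% of all genes, and 14.3% of this subunit), and edgeR and DESeq2 each called 0. Rpl35a, a Diamond-Blackfan anaemia gene (chr16:33056453-33060189), had the smallest p of the subunit. It was at 331, 291 and 234 CPM in the vehicles and 356, 402 and 529 CPM in the inhibitors, without overlap, and its log2 fold change was 0.59 ± 0.20 (edgeR adjusted p of 0.151).

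Rpl31, which lies at the rim of the peptide exit tunnel (chr1:39367842-39371911), was at 365, 307 and 256 CPM against 384, 435 and 524 CPM. Rpl17, also at the tunnel (chr18:74998558-75003381), was at 1001, 822 and 627 CPM against 1051, 1145 and 1644 CPM. Rpl22, which binds RNA and whose loss blocks development of alpha-beta T cells (chr4:152325742-152334071), was at 326, 292 and 234 CPM against 336, 388 and 501 CPM. In each of the 3 the groups stood apart only by the narrow gap between vehicle 1 and inhibitor 1. The log2 fold changes were 0.53 ± 0.18, 0.65 ± 0.24 and 0.52 ± 0.20, with edgeR adjusted p of 0.155, 0.182 and 0.184.

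Rpl5 and Rpl11, which with the 5S RNA can bind Mdm2 and so stabilise p53, are the 2 protein partners in the 5S particle. Rpl5 (chr5:107900502-107909005) was at 651, 543 and 427 CPM in the vehicles and 624, 726 and 955 CPM in the inhibitors, and Rpl11 (chr4:136028265-136053428) was at 477, 380.2 and 321 CPM against 418, 498 and 580.2 CPM. Vehicle 1 lay above inhibitor 1 for both genes. Their log2 fold changes were 0.51 ± 0.22 and 0.35 ± 0.20, with edgeR adjusted p of 0.239 and 0.341.

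Another list holds proteins close to the peptidyl transferase centre. Rpl8 (chr15:76904078-76906314) was at 1298, 945 and 889 CPM against 975, 1201 and 1291 CPM, and its highest library was vehicle 1. Rpl10, X-linked and needed late in large-subunit maturation (chrX:74270812-74273135), was at 844, 698 and 639.6 CPM against 770.4, 875 and 940.4 CPM. Both overlapped between groups, with log2 fold changes of 0.15 ± 0.20 and 0.24 ± 0.16 and edgeR adjusted p of 0.697 and 0.412. With Rpl3 at 0.15, the 3 genes of this list gave a median log2 fold change of 0.15. The 7 measured proteins of the exit tunnel had a median of 0.44, with 2 higher at an unadjusted p under 0.05 (9.68% of all genes). Rpl26 of the tunnel list was not analysed here, and the difference between the lists was not tested. Under the length offset the medians were 0.03 for the peptidyl transferase list and 0.08 for the tunnel list. The former was 0.34 without vehicle 1, 0.27 without inhibitor 1, 0.07 without inhibitor 5 and 0.04 without vehicle 3.

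The 4 X-linked members, Rps4x, Rpl10, Rpl36a and Rpl39, had a median log2 fold change of 0.34, and 0.05 under the length offset, and 0 of them reached an unadjusted p under 0.05. Rpl36a (chrX:134585654-134588062) was at 251, 190.0 and 154 CPM in the vehicles and 220.3, 276 and 321 CPM in the inhibitors, and Rpl39 (chrX:37082520-37085402), a short protein lining the exit tunnel, at 198, 158 and 129 CPM against 187, 219.6 and 253 CPM. Vehicle 1 exceeded inhibitor 1 in both. Their log2 fold changes were 0.46 ± 0.22 and 0.44 ± 0.19, with edgeR adjusted p of 0.273 and 0.238.

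The stalk proteins, which recruit the translation factors that hydrolyse GTP, had log2 fold changes of 0.26 ± 0.19 (Rplp0), 0.21 ± 0.21 (Rplp1) and 0.39 ± 0.16 (Rplp2), of which Rplp1 turned to -0.15 under the length offset. Their median of 0.26 was 0.43 without vehicle 1 and 0.16 without vehicle 3. edgeR called 0 of the 3. Rplp0 (chr5:115559467-115563727), often used as a reference gene in quantitative PCR, was at 2148, 1662 and 1506 CPM in the vehicles and 1912, 2148 and 2326 CPM in the inhibitors. Rplp1 (chr9:61913284-61914542) was at 849, 613 and 559 CPM against 629, 819 and 884 CPM. Rplp2 (chr7:141447370-141451585) was at 473, 389.8 and 361 CPM against 460.1, 553 and 595 CPM. In all 3 vehicle 1 reached into the range of the inhibitors, and the edgeR adjusted p were 0.444, 0.602 and 0.223.

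The balance of RNA counts between large-subunit and small-subunit genes differed between groups without overlap. Counts in large-subunit genes over counts in small-subunit genes gave a ratio of 1.23 for vehicle 1, 1.17 for vehicle 2 and 1.18 for vehicle 3, beside 1.12, 1.14 and 1.11 for the inhibitor libraries. The means were 1.20 ± 0.0304 and 1.12 ± 0.0122 (SD, n = 3 each). Vehicle 1, which lay with the inhibitors on the summed share of counts, had the highest ratio of the 6. The small-subunit genes were also the shorter ones, with a median deposited length of 608.5 bases against 776.5 bases. Their median log2 fold change was 0.47, against 0.37 for the large subunit. Under the offset for gene length these medians were 0.19 and 0.17. The ratio itself was not computed under that offset, and the part of length in it was not tested.

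The divergent paralogs are sequence relatives of core members, several of them best known from special tissues. Of the 4 measured, 3 had a positive fold change and 1 a negative one, and edgeR called 0. Rps4l was at 22.8, 21.7 and 23.4 CPM in the vehicles and 11.7, 16.6 and 14.7 CPM in the inhibitors, all inhibitor libraries below all vehicles. Its log2 fold change was -0.66 ± 0.17, with an adjusted p of 0.0817 in edgeR and 0.00963 in DESeq2, opposite in sign to Rps4x (0.22). The GENCODE annotation lists Rps4l (chr6:148354656-148355598) as a transcribed processed pseudogene. It was not among the members compared for shared sequence, and whether its counts hold reads of related genes was not tested.

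Rps27l, a paralog of Rps27 that p53 is known to induce (chr9:66946086-66949516), was at 93.0, 96.0 and 70.1 CPM in the vehicles and 79.6, 98.8 and 134 CPM in the inhibitors, with overlap and a log2 fold change of 0.27 ± 0.22 (edgeR adjusted p of 0.498). Rpl3l, a paralog of Rpl3 made mainly in striated muscle (chr17:24727820-24736143), was low at 1.14, 1.22 and 1.02 CPM against 2.02, 1.38 and 2.07 CPM. Rpl3l did not overlap between groups, with a log2 fold change of 0.70 ± 0.29 (edgeR adjusted p of 0.223). Rpl39l, a paralog of Rpl39 best known from the testis (chr16:10170226-10174911), was at 0.399, 0.0552 and 0.955 CPM against 0.0651, 0.260 and 2.58 CPM. The Rpl39l value of inhibitor 5 alone sets its log2 fold change of 1.01 ± 1.23, which was -1.59 without that library (edgeR adjusted p of 0.663 with all libraries and 0.522 without it).

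As RPKM (CPM divided by the deposited length in kilobases), 73 of the 79 members had a mean level of at least 100 over the 6 libraries, against 5.69% of all tested genes, and the median member was at 755, against 8.60 for all tested genes. Rps9 was the highest at 2202, followed by Rps12 at 1789.6 and Rpl32 at 1727. Rpl32 was at 844, 710.4 and 558 CPM in the vehicles and 838, 988 and 1285 CPM in the inhibitors, with vehicle 1 just above inhibitor 1. Its log2 fold change was 0.56 ± 0.22 (edgeR adjusted p of 0.205).

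Below 100 were Rps4l, Rpl3l and Rpl39l, and also 3 core genes: Rps27 at 2.48, Rpl30 at 3.68 and Rpl34 at 7.64 RPKM. Rps27, whose protein has a zinc finger (chr3:90212522-90213651), was at 2.34, 1.02 and 0.811 CPM in the vehicles and 1.24, 1.45 and 1.70 CPM in the inhibitors, far from the level of other small-subunit genes. The vehicle and inhibitor values of Rps27 overlapped, with a log2 fold change of 0.09 ± 0.45 (edgeR adjusted p of 0.928).

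Ribosomal protein genes have many near-identical processed copies in the mouse genome, so the members were compared with all other annotated transcripts in 50-base windows of their coding sequence. For 78 members with an annotated coding sequence, 35 had over 95% of their windows in at least 1 other gene. Rps27 had 100%, Rpl30 83.3% and Rpl34 71.5%. Rps12 also had 100% and was the second most abundant member per length. The part of shared sequence in the low counts of Rps27, Rpl30 and Rpl34 was not tested. The 35 most shared members had a median log2 fold change of 0.44, whereas Rps3 and Rpl8, with 8.05% and 8.69% of windows shared, stood at 0.53 and 0.15. No source used here says how reads that match several places were counted, so levels and fold changes of members with copies are uncertain to an unknown degree.

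Ribosomal protein messages are short, and in these libraries fold change varied with length over all genes. Among tested genes of up to 500 bases the median log2 fold change was 0.36 (174 genes), beside 0.39 for the 15 members of that length. From 500 to 1000 bases it was 0.22 for all 811 genes and 0.45 for 46 members, and from 1000 to 2000 bases 0.05 for all genes and 0.34 for 15 members. Longer genes had medians of -0.03 and -0.04. The deposited length of Rps15a, 5134 bases, is far above that of the other members.

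With an offset that removed the trend on length within each library, the median of the members was 0.17 beside -0.01 for all tested genes. Under that offset 67 of the 79 members were positive, 13 were higher with unadjusted p under 0.05 (9.39% over all tested genes), and edgeR called 0. The medians were then 0.19 for the small subunit, 0.17 for the large subunit and 0.02 for the stalk. The 9673 tested genes within the central CPM range of the members had a median log2 fold change of 0.01 in the fit without that offset.

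**Figure D4:**
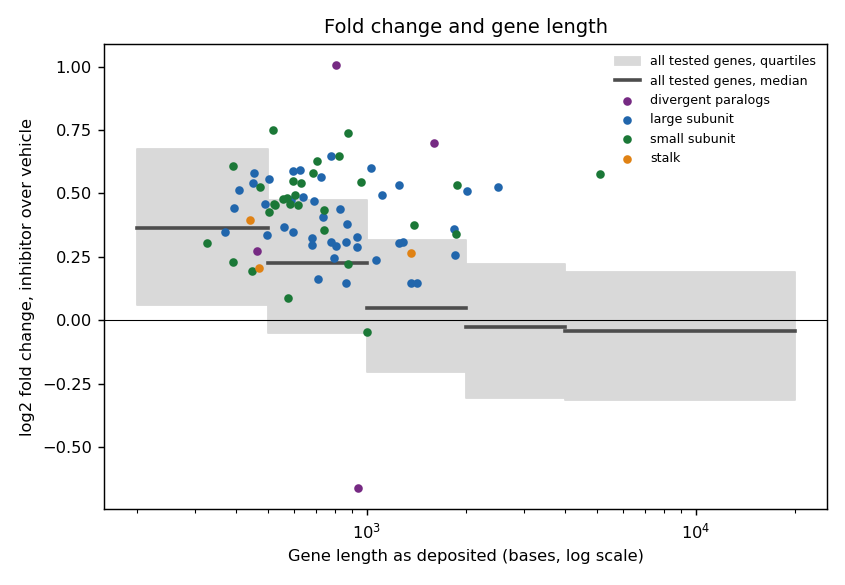
Log2 fold change (vertical axis, inhibitor over vehicle) against deposited gene length in bases (horizontal log axis) for the 79 members, coloured by role, over the quartiles and median of all tested genes in 5 length bins. Up to 500 bases the medians are 0.36 for all genes and 0.39 for members, and from 500 to 1000 bases 0.22 and 0.45.

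By disease, 18 of the 19 listed Diamond-Blackfan anaemia genes were measured. All 18 had a positive log2 fold change, with a median of 0.50, although 14 of the 18 were positive under the length offset, which turned Rps27 to -0.19 and 3 others. Of the 18, 8 were higher at an unadjusted p under 0.05 and 8 did not overlap between groups (9.68% and 14.4% of all genes). edgeR called 0 of the 18 and DESeq2 called 2 higher (4.42% of all genes). The members of the list overlap those of the subunit lists.

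Ribosomal genes that the symbol rule leaves out behaved alike in sign. Of 9 listed, 6 were in the table, and all 6 had a positive fold change with a median of 0.32, although 4 of the 6 were positive with a median of 0.13 under the length offset, which turned Rpl36al to -0.20. Without inhibitor 5 the median was 0.21. Fau, a fusion of a ubiquitin-like protein with a small-subunit protein (chr19:6057844-6059524), was at 544, 480.2 and 423 CPM in the vehicles and 673, 718 and 783 CPM in the inhibitors. The Fau groups did not overlap, and its log2 fold change was 0.59 ± 0.15, with an adjusted p of 0.0826 in edgeR and 0.00302 in DESeq2. Rps3a1, Rpl22l1, Rpl7l1 and Rpl36al overlapped between groups, with log2 fold changes of 0.40, 0.41, 0.25 and 0.14.

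Genes with related control or function were set beside the members. Of 17 TOP messages that do not encode ribosomal proteins, mostly translation factors, 15 had a positive fold change with a median of 0.21, 2 were higher at an unadjusted p under 0.05 (9.68% of all genes), and edgeR called 0. The median was 0.35 without vehicle 1, 0.12 without inhibitor 5 and 0.10 without vehicle 3. The elongation factor Eef1b2 was at 556, 458 and 381 CPM in the vehicles and 562, 671 and 792 CPM in the inhibitors, with a log2 fold change of 0.54 ± 0.20 (edgeR adjusted p of 0.173). The initiation factor subunit Eif3h stood at 0.38 ± 0.16 (edgeR adjusted p of 0.219). These messages had a median length of 1933 bases, against 710 bases for the members. Under the length offset their median was 0.18 with 13 of 17 positive, and that of the members was 0.17.

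Ribosome biogenesis genes, whose products make and assemble ribosomal RNA and subunits, had the other sign: 22 of 25 were negative, with a median log2 fold change of -0.23, 5 were lower at an unadjusted p under 0.05 (11.9% of all genes), and 11 were lower without overlap (16.2% of all genes). edgeR called 0 of the 25 and DESeq2 called 0. Bysl, needed for small-subunit maturation, was at 37.0, 34.8 and 34.2 CPM in the vehicles and 22.5, 28.7 and 27.0 CPM in the inhibitors, with a log2 fold change of -0.44 ± 0.13 (edgeR adjusted p of 0.124). Rrp12, a ribosomal RNA processing factor, stood at -0.47 ± 0.16 (edgeR adjusted p of 0.153). The list had a median length of 2476 bases, and its median was -0.13 without vehicle 1 and -0.12 without inhibitor 1.

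Proteins of the mitochondrial ribosome, made from nuclear genes, had a median log2 fold change of 0.09, with 50 of 77 positive, 6 higher and 2 lower with unadjusted p under 0.05, and 0 called by edgeR. Mrpl33 had a log2 fold change of 0.54 ± 0.14 and Mrps21 of 0.43 ± 0.12, with edgeR adjusted p of 0.0876 and 0.0920. Both are short, at 466 and 407 bases. The list as a whole had a median length of 1053 bases. Its sign depended on the setting: the median was -0.07 with 30 of 77 positive under the length offset and -0.003 with 36 positive without inhibitor 5. It was 0.02 without vehicle 3 and 0.17 without inhibitor 1. The share at an unadjusted p under 0.05 was 9.68% higher and 11.9% lower over all genes.

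Of 11 genes of the S6 kinase branch and of TOP control, edgeR called 1 (1.83% of all genes in either direction). Pdcd4, an inhibitor of translation initiation that S6 kinase marks for degradation (chr19:53892231-53929860), rose from 119.6, 109 and 96.0 CPM in the vehicles to 170.5, 196 and 187 CPM in the inhibitors. Its log2 fold change was 0.77 ± 0.13, with an adjusted p of 0.0420 in edgeR and 1.54e-05 in DESeq2. That edgeR call was lost when any library but vehicle 1 was left out, with adjusted p between 0.074 and 0.177 in those 5 fits. In the fits without vehicle 3, inhibitor 1, inhibitor 3 or inhibitor 5, edgeR called 0 of all tested genes. The adjusted p of Pdcd4 in limma voom was 0.0524. Larp1, the protein that binds TOP messages and represses them when mTOR is off (chr11:58009064-58062034), was at 274, 268 and 297 CPM in the vehicles and 187, 219 and 215 CPM in the inhibitors. The Larp1 groups did not overlap, and its log2 fold change was -0.44 ± 0.12, with an adjusted p of 0.103 in edgeR and 0.0307 in DESeq2.

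**Figure D5:**
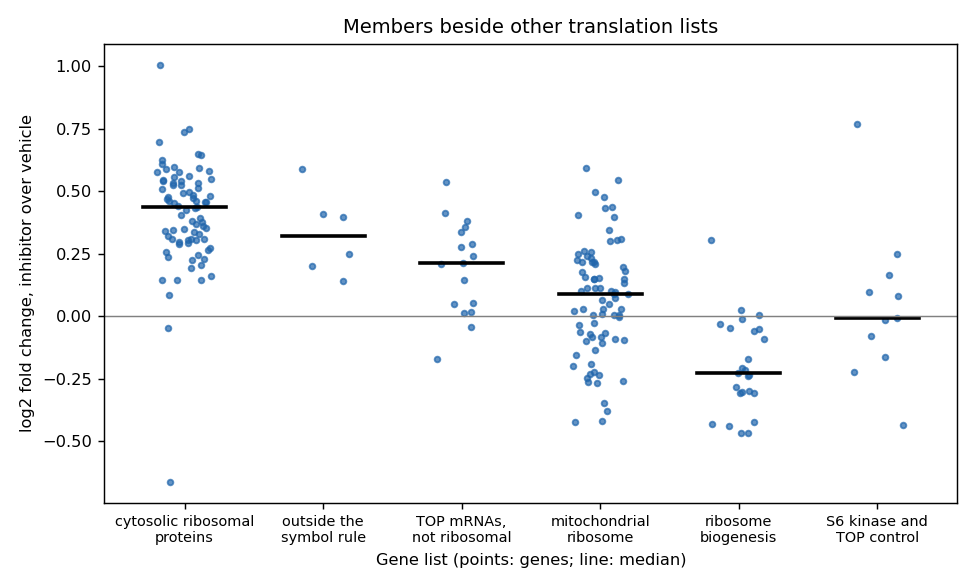
Log2 fold change (vertical axis, inhibitor over vehicle) of each gene in 6 lists (horizontal axis), with the median of each list as a line. The medians are 0.44 for the members, 0.32 for ribosomal genes outside the symbol rule and 0.21 for other TOP messages. They are 0.09 for the mitochondrial ribosome, -0.23 for ribosome biogenesis and -0.01 for S6 kinase and TOP control. Under the length offset, not drawn here, the members and the other TOP messages have medians of 0.17 and 0.18.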

How the data were processed

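RNA was sequenced from 6 bone marrow samples, 3 per treatment, grouped by the treatment in the labels. The labels' protocols name a SMART-Seq v4 kit for cDNA and Nextera XT for the libraries, a chemistry without strand marks. STAR, featureCounts and the mm10 build are named in the submitters' processing notes, and versions are not given in the sources used here. One table deposited by the authors holds raw read counts for 14992 genes, with each gene's length and, per the file headers, their own fold change as a ratio, its log2 value, a raw p-value and the adjusted one.

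Counts went into edgeR 4.0.16 (R 4.3.3), with filterByExpr keeping 12806 genes, TMM factors and a quasi-likelihood F test with group as the only term, adjusted by the Benjamini-Hochberg method over all tested genes, with calls at 0.05. CPM were computed on library sizes scaled by TMM. The biological coefficient of variation was 25.2%. Alternatives were DESeq2 1.42.0, limma 3.58.1 voom with and without quality weights, other scalings and filters, a length offset, a replicate block and each library left out. The closest pair of libraries differed by a chi-square of 31.1 per degree of freedom, so all were counted separately.

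The members, lists and named genes were chosen with earlier results of these data known. Genes named are those with textbook roles, the paralogs, the members with the smallest p in each role list, those with extreme fold changes or levels, the genes outside the symbol rule, and the smallest p in the other lists. Rpl3, Rpl30, Rpl34, Rps4x, Rps15a and Rps28 were added after their values were seen. A few further genes enter every count and median without being named here. Gene coordinates are from GENCODE vM21 (GRCm38) and promoters from RefSeq (GRCm38.p6). Intervals of single counts were not used, and precision rests on 3 libraries per group.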

Additional observations from a re-analysis of the deposited data

How the results depend on the processing

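The median log2 fold change of the members stayed positive under every alternative run, from 0.17 with the gene length offset to 0.58 without vehicle 1, and with each library left out in turn it lay between 0.29 and 0.58 in edgeR. edgeR called 0 members except for 1 without vehicle 1 (7.99% of all genes) and 2 at an adjusted p under 0.10 (3.3% higher and 4.95% lower). DESeq2 called 7 (11.2% of all genes), limma voom 0 (0.664%) and voom with quality weights 67 (22.3%). With each library left out, edgeR called 0 to 1 members. DESeq2 with a library left out was an alternative chosen after seeing the data. It called 54 without vehicle 1 (14.2% of all genes), 9 without inhibitor 1 (7.1%) and 3 without vehicle 2 (10.7%). It called 2 without inhibitor 3 (5.61%), 1 without vehicle 3 (8.42%) and 1 without inhibitor 5 (7.37%). Over all genes the count of 234 became 1509 with DESeq2, 85 with voom, 2857 with voom and quality weights, 1056 at the looser threshold, 0 to 1034 with each library left out in edgeR and 760 (inhibitor 3), 955 (inhibitor 5), 961 (inhibitor 1), 1115 (vehicle 3), 1419 (vehicle 2) and 1876 (vehicle 1) with that library left out in DESeq2. With the replicate number as a block the count was 7 over all genes and 0 among members, whose median was 0.28. Only numbers 1 and 3 occur in both groups. In that fit vehicle 2 and inhibitor 5 therefore do not bear on the treatment effect, which rests on vehicles 1 and 3 and inhibitors 1 and 3. Samples that share a number in the labels deviated against each other (r of -0.514 for number 1 and -0.103 for number 3). Pairs with unlike numbers ran from -0.476 to 0.505, so these values cannot decide whether the numbers mark pairs. The main fit did not take them as pairs. Under the length offset 67 of the 79 members were positive, against 77 without it. Of the named genes it turned the log2 fold change of Rplp1 to -0.15, Rps27l to -0.11, Rpl8 to -0.045, Rps27 to -0.19 and Rpl36al to -0.20, and quality weights turned Rps2 to 0.18. The block, in which inhibitor 5 does not bear on the treatment effect, turned Rpl39l to -2.12 and Rps27 to -0.048. With each library left out in edgeR, Rps2 ran from -0.16 to 0.16, Rps27 from -0.20 to 0.68, Rpl39l from -1.59 to 2.10 and Rpl36al from -0.022 to 0.27. In DESeq2, Rps2 turned to 0.15 without vehicle 1 and 0.052 without inhibitor 1, Rps27 to -0.073 without vehicle 2, -0.18 without vehicle 3 and -0.027 without inhibitor 5, and without inhibitor 5 also Rpl39l to -1.56 and Rpl36al to -0.023. The cause of these shifts was not tested. Rps27 and Rpl39l rest on few counts, which limits both.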
